A study of Mus musculus with 4 samples.

Results

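The genes described here encode the Polycomb complexes PRC1 and PRC2, and the enzymes, cofactors and readers of methylation at lysine 9 of histone H3 (H3K9). They were listed by symbol, by a rule that uses no measured value, though earlier results of these data were known when the list was made. All 41 of the 41 genes named were found among 20296 genes, and all had an adjusted p. RNA was compared between naive mouse embryonic stem cells (nESC), held in 2i/LIF medium, and epiblast-like stem cells (EpiLSC), collected at day 3 of culture with bFGF at 12 ng/ml plus activin A at 20 ng/ml. Both states were sampled in 2 lines of embryonic stem cells, R1 and E14TG2a (E14), with 1 sample per line and state. The labels name no genetic change in either line. The medium differs along with the state, so their effects cannot be told apart.

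PRC2 places methyl groups on lysine 27 of histone H3 through its catalytic subunit EZH1 or EZH2, and accessory subunits steer it to chromatin. PRC1 attaches ubiquitin to histone H2A through RING1A or RNF2 (RING1B), joined to a PCGF protein. Canonical PRC1 reads the PRC2 mark through a CBX protein and compacts chromatin through PHC proteins, while variant PRC1 carries RYBP or YAF2 instead. H3K9 methylation is placed by SETDB1, by the SUV39H enzymes and by EHMT1 (GLP) with EHMT2 (G9a). It is bound by HP1 proteins and keeps retroelements, heterochromatin and many germline genes silent. In embryonic stem cells Polycomb covers genes of later development.

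The measurements are a mean normalized count over the 4 libraries and a log2 fold change (log2FC) with its standard error (SE), both from DESeq2 as run by the authors. Values of single samples were not analysed here. A level per state is therefore an implied one, computed from mean and log2FC, and has no error of its own. Because each line contributed a single sample to a state, the SE cannot show the spread between repeat cultures of a line on its own. Whether the authors' model had a term for the line is not known, so the SE may or may not include the difference between lines. Sequencing depth per sample is unknown; the means add up to 27888553 normalized counts. In bulk RNA, fewer cells of a type and less RNA per cell cannot be told apart.

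The header gives no direction, so positive log2FC was read as higher in EpiLSC from Fgf5, Otx2 and Dnmt3b (positive) and Zfp42, Klf4 and Esrrb (negative); the lists that hold these genes are no independent support for it. With that reading all 6 naive markers were called lower and 5 of 6 formative markers higher, Tead2 being the one not called. Of 5 core pluripotency genes 2 were called lower, Sox2 (implied 9169 to 899 normalized counts) and Nanog (14158 to 2981). The core genes Pou5f1, Lin28a and Sall4 were not called. Markers of other cell types were called in part. Higher were 3 of 6 tested fibroblast and feeder genes, 2 of 6 of primitive endoderm, 2 of 5 of mesoderm and 1 of 4 of neuroectoderm. Lower were 1 gene of primitive endoderm and 1 of mesoderm. The tested fibroblast and feeder genes added up to an implied level of 99.9 normalized counts in nESC and 466 in EpiLSC. Called were Thy1 (5.83 to 141), Mmp2 (12.4 to 205) and Dcn (0.485 to 52.6). Not called were Col1a1 (3.09 to 9.04), Col1a2 (4.24 to 27.4) and Pdgfrb (73.9 to 31.2), the last with the other sign. What part other cells have in the results was not tested.

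Most of the silencing machinery did not pass the test between the states. The variant PRC1 gene Yaf2 and the PRC2 accessory gene Phf19 rose in EpiLSC, and no gene fell: 2 of 41 were called higher and 0 lower, by DESeq2 at an adjusted p under 0.05 in the authors' deposited table. Among all 16361 tested genes that rule called 7.67% higher, 6.23% lower and 13.9% in either direction, against 4.88% of the silencing genes. At an unadjusted p under 0.05 there were 3 genes higher (Yaf2, Phf19, Suv39h1) and 3 lower (Mtf2, Epop, Bmi1), where the background was 12.1% higher, 9.68% lower and 21.7% in either direction. The median log2FC was -0.03 over the silencing genes and 0.02 over all tested genes. The median size of the log2FC was 0.69 and 0.70.

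These are mostly abundant transcripts, and 28 of the 41 had a mean of at least 1000 normalized counts in the authors' deposited table. Of those, 0 were called, while among 4949 tested genes of that level the rule called 2.4% higher, 4% lower and 6.41% in either direction. At an unadjusted p under 0.05, 3 of the 28 passed with DESeq2 (Mtf2, Bmi1 and Suv39h1), where 10.2% of the 4949 did, so this share is near the background. The median size of the log2FC was 0.54 for the 28 and 0.39 for the 4949, and the median SE 0.73 and 0.68. What lies behind the lack of calls at this level was not tested.

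Other call rules gave between 0 and 3 genes higher and 0 lower. An adjusted p under 0.01 called 1 of the 41 as higher, against a background of 5.37% higher, 4.41% lower and 9.78% in either direction. An adjusted p under 0.10 called 3, against 9.16% higher, 7.48% lower and 16.6% in either direction. With no filter on low means it was 1, against 5.84% higher, 4.75% lower and 10.6% in either direction. Each of these left the count of lower genes at 0. Among genes averaging 100 or higher the count was 1, against 5.94% higher, 5.74% lower and 11.7% in either direction, and Phf19 was not among them. A test against a change of up to 2-fold called 0, against 3.84% higher, 3.07% lower and 6.91% in either direction. Centring on abundant genes called 2, against 7.66% higher, 6.23% lower and 13.9% in either direction.

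**Figure D1:**
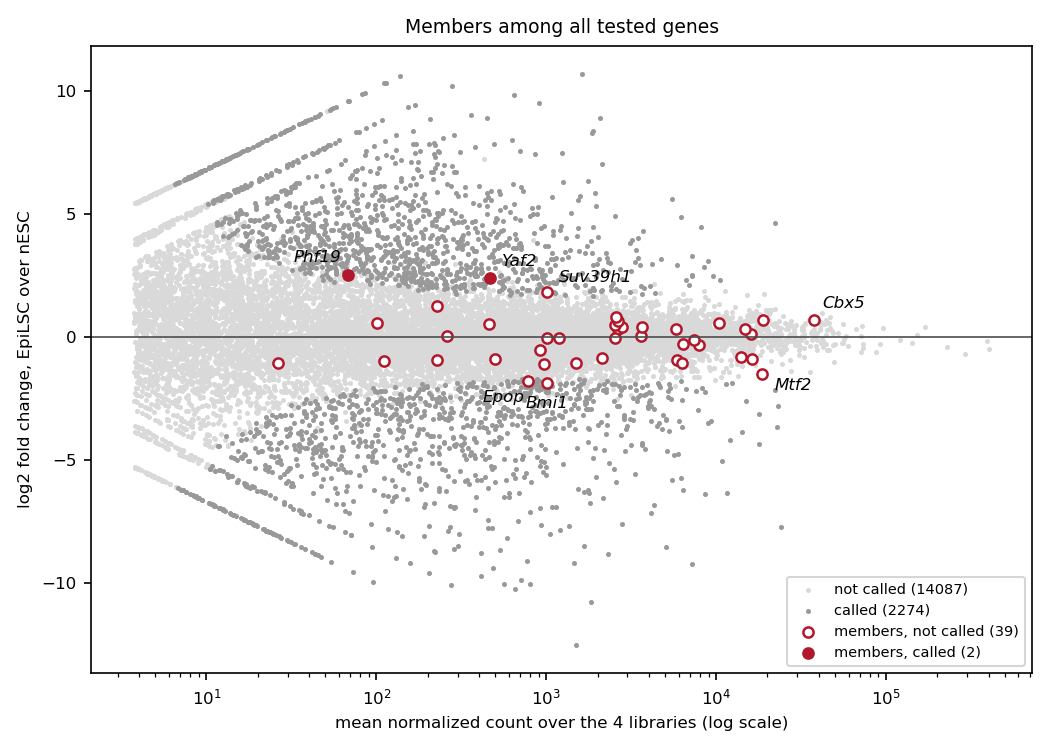
Each point is a tested gene, with its mean normalized count over the 4 libraries (log scale) against its log2FC, EpiLSC over nESC. The 39 open red circles are silencing genes that did not pass; the 2 filled ones, Yaf2 at 2.40 and Phf19 at 2.53, have means of 464 and 67.9, far below those of Mtf2 and Cbx5.

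Precision sets what could be seen. A change had to reach from 3.13-fold (Pcgf3) to 6.87-fold (Phc2) to pass, given the SE of each gene. Among the 39 uncalled genes, 14 had a 95% interval inside a 4-fold change either way, among them Ezh1, Ezh2, Jarid2, Aebp2, Rnf2, Rybp and Kdm2b. The intervals of the other 25 reached further, so for these genes a change of that size lies within the error. Of all 41 genes 34.1% had an interval inside 4-fold, near the 35.8% of all tested genes. At a mean of at least 1000 it was 46.4% of the silencing genes, against 67.1%.

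**Figure D2:**
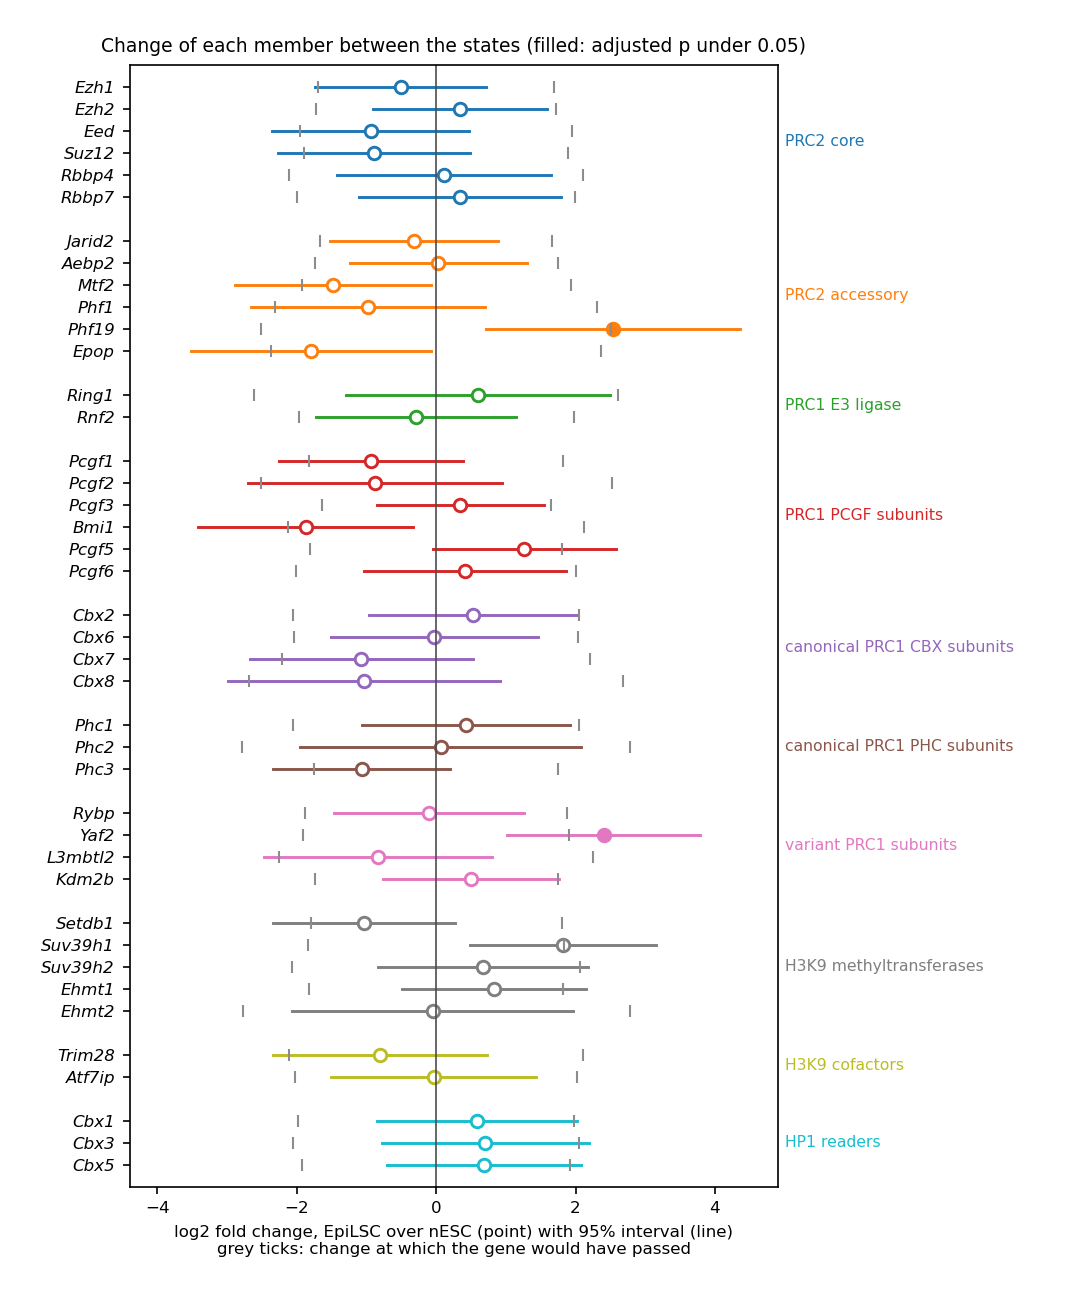
The log2FC (EpiLSC over nESC) of each gene with its 95% interval, grouped by role; filled points had an adjusted p under 0.05, and grey ticks mark the change each gene would have needed. Yaf2 at 2.40 and Phf19 at 2.53 lie past their ticks, and Suv39h1 at 1.82 lies just short of its tick at 1.83.

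Promoters were searched for shared sequence, in windows from 250 bases before to 50 bases after the start (RefSeq, GRCm38.p6, the first listed window of a gene). A window was found for 36 of the 41 genes, all but Cbx2, Yaf2, Epop, Pcgf1 and Rybp. These windows held a median of 24 CpG (range 4 to 41), against 20 over the 12080 tested genes with a window. An E2F-type motif, spelled TTTGGCGC, TTTCCCGC or TTTCGCGC and searched on both strands, was in 4 windows (11.1%), those of Phf19, Ezh2, Suz12 and Cbx3, against 3.44% of tested genes. The E-box CACGTG was in 9 windows (25%), against 9.93%, and the GC box GGGCGG in 28 (77.8%), against 62.4%. In all, 10 motifs were searched, with each E2F-type spelling counted as 1. An ETS motif was in 1 window (2.78%), against 16.7%, and the CCAAT box in 15 (41.7%), against 38.9%. An NRF1 motif was in 1 (2.78%), against 1.90%, and a YY1 motif in 1 (2.78%), against 1.45%. The letters TATAAA were in 0 of 36, against 7.26%. Such matches are letters only and show no binding. Printed here are the 250 bases before the start of the 3 genes with an E2F-type match there, 5′ to 3′ along the gene, with the match in capitals; that of Ezh2 lies past the start.
Phf19, chr2:34913977-34914226, minus strand: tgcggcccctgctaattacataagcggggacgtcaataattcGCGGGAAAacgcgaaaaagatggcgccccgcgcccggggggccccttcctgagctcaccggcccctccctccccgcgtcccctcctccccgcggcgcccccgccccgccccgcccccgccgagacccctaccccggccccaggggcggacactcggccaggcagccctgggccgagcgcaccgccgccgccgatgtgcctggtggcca
Suz12, chr11:79992856-79993105, plus strand: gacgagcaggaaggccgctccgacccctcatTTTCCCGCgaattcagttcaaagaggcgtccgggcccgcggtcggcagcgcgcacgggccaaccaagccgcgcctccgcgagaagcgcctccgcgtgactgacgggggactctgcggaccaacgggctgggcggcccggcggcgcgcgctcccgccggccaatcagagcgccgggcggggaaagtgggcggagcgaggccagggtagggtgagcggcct
Cbx3, chr6:51470366-51470615, plus strand: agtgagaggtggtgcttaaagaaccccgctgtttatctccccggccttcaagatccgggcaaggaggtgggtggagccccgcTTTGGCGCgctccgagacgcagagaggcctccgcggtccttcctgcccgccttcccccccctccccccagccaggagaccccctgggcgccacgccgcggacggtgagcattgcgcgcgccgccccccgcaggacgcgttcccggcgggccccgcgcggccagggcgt
Of the genes with this match only Phf19 was called. The log2FC of the authors' deposited table was 2.53 for Phf19, 0.71 for Cbx3, 0.35 for Ezh2 and -0.89 for Suz12. The intervals of Cbx3 (-0.78 to 2.20), Ezh2 (-0.90 to 1.59) and Suz12 (-2.27 to 0.48) each included both signs. Whether genes with this match share a direction was not tested.

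The core of PRC2 held no called gene. Ezh2, the catalytic subunit of dividing cells, had implied levels, nESC before EpiLSC, of 5135 and 6523 normalized counts, the highest log2FC of the core (log2FC 0.35, SE 0.64, interval -0.90 to 1.59, mean 5829, adjusted p 0.923, the authors' deposited table). Ezh1, the other catalytic subunit, stood at 1076 and 758, for which the authors' deposited table gives a log2FC of -0.51 (SE 0.63). Eed, which binds the methyl mark and holds the complex together, had the lowest log2FC of the core, with implied levels of 7739 and 4027 (log2FC -0.94, SE 0.72, interval -2.36 to 0.47, mean 5883, adjusted p 0.563, the authors' deposited table). Suz12, the scaffold subunit, was close to it, with levels of 20957 and 11292 and, by the authors' deposited table, a log2FC of -0.89 (SE 0.70). The histone-binding subunits Rbbp4 and Rbbp7, which also serve other chromatin complexes, had a log2FC of 0.11 (SE 0.78) and 0.34 (SE 0.74) by the authors' deposited table. Their implied levels were 15429.6 and 16665 for Rbbp4 and 13055 and 16538 for Rbbp7. Thus Ezh2, Rbbp4 and Rbbp7 were on the positive side and Ezh1, Eed and Suz12 on the negative side, all short of the change needed to pass.

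Among the accessory subunits of PRC2, Phf19 rose and the more abundant ones did not pass. PHF19, MTF2 and PHF1 are the Polycomb-like proteins, which help to bring PRC2 to CpG-rich DNA. Phf19 (ENSMUSG00000026873) went from an implied 20.0 normalized counts in nESC to 116 in EpiLSC, a 5.79-fold rise (log2FC 2.53, SE 0.93, interval 0.71 to 4.35, mean 67.9, adjusted p 0.0469, the authors' deposited table). Of the called genes it lay nearest to the threshold. Its call ended at a threshold of 0.01, without the filter on low means (adjusted p 0.0582) and in the test against 2-fold (0.680), and its adjusted p ranged from 0.0469 to 0.680.

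Mtf2 was the highest of the accessory genes per length, at 4819 normalized counts per kb of exon in nESC and 1729 in EpiLSC. It did not pass (log2FC -1.48, SE 0.72, interval -2.88 to -0.08, mean 18657, adjusted p 0.192, the authors' deposited table). Phf1 had implied levels of 147 and 75 normalized counts, and the authors' deposited table gives a log2FC of -0.97 (SE 0.86). Exons of Cuta on the other strand cover 39.3% of those of Phf1, and it is not known whether the counting used strand. The log2FC of Phf19 and Mtf2 had opposite signs and differed by 4.01 (SE 1.17, taking the errors as independent), the largest of 36 such differences between paralogs and given without a test. Next were Phf1 and Phf19 (3.51, SE 1.26), Bmi1 and Pcgf5 (3.13, SE 1.03), and Rybp and Yaf2. Phf19 nevertheless reached only 23.0 normalized counts per kb in EpiLSC.

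Epop, which links PRC2 to elongin, had the lowest log2FC of the accessory genes, with implied levels of 1214 and 350.3 (log2FC -1.79, SE 0.88, interval -3.51 to -0.07, mean 782, adjusted p 0.201, the authors' deposited table). Jarid2 and Aebp2 belong to another form of PRC2 than the Polycomb-like proteins. Their log2FC in the authors' deposited table was -0.31 (SE 0.62) and 0.03 (SE 0.65), with implied levels of 8819 and 7097 for Jarid2 and 3578 and 3657 for Aebp2. Summed per length, the 6 accessory genes had 6661 normalized counts per kb in nESC and 3027 in EpiLSC, and the 6 core genes 13426 and 12005. Most of the difference in the accessory sum is that of Mtf2, which was not called.

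The catalytic subunits of PRC1 did not pass. Rnf2 had implied levels of 6989.6 and 5716 (log2FC -0.29, SE 0.73, interval -1.72 to 1.14, mean 6353, adjusted p 0.955, the authors' deposited table). Its paralog Ring1 was low, with 80.1 and 121 (log2FC 0.60, SE 0.97, interval -1.30 to 2.49, mean 101, adjusted p 0.904, the authors' deposited table). Rnf2 supplied 98.6% of the pair's level per length in nESC and 97.4% in EpiLSC.

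The PCGF subunits decide which PRC1 is formed: PCGF2 and BMI1 (PCGF4) belong to canonical PRC1, and PCGF1, PCGF3, PCGF5 and PCGF6 to variant forms. Of the 6 genes 0 were called, and 1, Bmi1, had an unadjusted p under 0.05 by DESeq2. Bmi1 had the lowest log2FC of all 41 genes, with implied levels, nESC before EpiLSC, of 1581 and 432 (log2FC -1.87, SE 0.79, interval -3.41 to -0.33, mean 1007, adjusted p 0.105, the authors' deposited table). It shares 2658 bases at 97.0% identity with Gm5946, and how reads with several matches were counted is not known. Pcgf2, the other canonical subunit, had a log2FC of -0.88 (SE 0.93) by the authors' deposited table. Pcgf5 had the highest of the group, with implied levels of 133 and 319.6 (log2FC 1.26, SE 0.67, interval -0.05 to 2.58, mean 226, adjusted p 0.261, the authors' deposited table). For Pcgf3, Pcgf6 and Pcgf1, the authors' deposited table gives 0.35 (SE 0.61), 0.41 (SE 0.74) and -0.94 (SE 0.68) as log2FC. Implied levels were 643 and 349.7 for Pcgf2, 2331 and 2965 for Pcgf3, 2405 and 3202 for Pcgf6 and 299 and 156 for Pcgf1. Both canonical PCGF genes and Pcgf1 were thus on the negative side, and the other 3 on the positive side, with none called.

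The CBX subunits of canonical PRC1, which read the mark of PRC2, did not pass either. Cbx7, known as the main one of embryonic stem cells, had the lowest log2FC of the 4, with implied levels, nESC before EpiLSC, of 1321 and 627 (log2FC -1.08, SE 0.82, interval -2.68 to 0.53, mean 974, adjusted p 0.557, the authors' deposited table). Cbx2 had the highest, with 379 and 545 (log2FC 0.52, SE 0.76, interval -0.97 to 2.02, mean 462, adjusted p 0.878, the authors' deposited table). Cbx6 stood at 1017 and 999 and Cbx8 at 35.2 and 17.2, for which the authors' deposited table has a log2FC of -0.03 (SE 0.76) and -1.04 (SE 0.99).

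The PHC genes encode the subunits through which canonical PRC1 forms polymers. Phc1 had the highest log2FC of the 3, with implied levels of 3136 and 4213 (log2FC 0.43, SE 0.76, interval -1.06 to 1.92, mean 3675, adjusted p 0.918, the authors' deposited table). Phc3 had the lowest, with 2034 and 968 (log2FC -1.07, SE 0.65, interval -2.34 to 0.20, mean 1501, adjusted p 0.371, the authors' deposited table). Phc2 had a log2FC of 0.07 (SE 1.03) and the largest SE of all 41 genes in the authors' deposited table, at implied levels of 253 and 265.

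In variant PRC1, Yaf2 rose and its paralog Rybp was not called. YAF2 and RYBP take the same place in variant PRC1, where they bind the RING subunit in place of a CBX protein. Yaf2 (ENSMUSG00000022634) went from an implied 148 normalized counts in nESC to 781 in EpiLSC, a 5.29-fold rise (log2FC 2.40, SE 0.71, interval 1.02 to 3.79, mean 464, adjusted p 0.00728, the authors' deposited table). Of the alternatives run, the test against 2-fold ended its call (adjusted p 0.396), and its adjusted p ranged from 0.00728 to 0.396. Rybp had implied levels of 7625 and 7094 and, by the authors' deposited table, a log2FC of -0.10 (SE 0.70). The log2FC of Yaf2 and Rybp differed by 2.51 (SE 0.99, taking the errors as independent). No exon of another gene overlapped those of Yaf2 or Phf19 in the annotation used, and no near-identical stretch of either was found in another gene's transcripts.

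Kdm2b and L3mbtl2 of variant PRC1 did not pass. KDM2B brings a PCGF1 complex to unmethylated CpG islands, and the authors' deposited table gives its gene a log2FC of 0.50 (SE 0.65), at implied levels of 2097 and 2966. L3mbtl2 encodes a subunit of the PCGF6 complex and had the lowest log2FC of the group, with implied levels of 2713 and 1526 (log2FC -0.83, SE 0.83, interval -2.47 to 0.81, mean 2119, adjusted p 0.739, the authors' deposited table). Exons of Chadl on the other strand cover 17.2% of those of L3mbtl2.

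Of the 5 H3K9 methyltransferase genes Suv39h1 came nearest to a call. SUV39H1 and SUV39H2 trimethylate H3K9 at pericentric heterochromatin. Suv39h1 had implied levels, nESC before EpiLSC, of 443 and 1569 (log2FC 1.82, SE 0.68, interval 0.49 to 3.15, mean 1006, adjusted p 0.0520, the authors' deposited table). Its adjusted p was the smallest of the uncalled genes, and it passed at a threshold of 0.10. The antisense gene Gm14820 shares 767 bases with its exons and has a mean of 275 normalized counts in the authors' deposited table. Suv39h2 had the same sign, with levels of 2038 and 3244 and a log2FC of 0.67 (SE 0.77) in the authors' deposited table. Setdb1, whose enzyme silences retroelements together with TRIM28, had the lowest log2FC, with implied levels of 8441 and 4099 (log2FC -1.04, SE 0.67, interval -2.35 to 0.26, mean 6270.2, adjusted p 0.417, the authors' deposited table). Ehmt1 and Ehmt2, whose proteins dimethylate H3K9 as a pair, had a log2FC of 0.83 (SE 0.68) and -0.05 (SE 1.03) by the authors' deposited table. Ehmt1 stood at 1849 and 3284 and Ehmt2 at 1213 and 1171 implied normalized counts. Per length, Setdb1 was the highest of the 5 in nESC (1232 normalized counts per kb) and Suv39h2 in EpiLSC (736), while the 5 summed to 2227 and 2249. Without division by length Setdb1 was the highest in both states.

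The cofactors and readers of H3K9 methylation did not pass. Trim28, the corepressor that KRAB zinc finger proteins recruit, had implied levels of 17844 and 10184 (log2FC -0.81, SE 0.78, interval -2.34 to 0.73, mean 14014, adjusted p 0.718, the authors' deposited table). Atf7ip, whose protein stabilizes SETDB1, had 2555 and 2494 (log2FC -0.04, SE 0.75, interval -1.51 to 1.43, mean 2524, adjusted p 0.994, the authors' deposited table). The 3 HP1 genes lay close together on the positive side. Cbx3 (HP1 gamma) had the highest log2FC of them, with levels of 14371 and 23455 (log2FC 0.71, SE 0.76, interval -0.78 to 2.20, mean 18913, adjusted p 0.773, the authors' deposited table), and Cbx1 (HP1 beta) the lowest, with 8269.8 and 12413 (log2FC 0.59, SE 0.73, interval -0.85 to 2.02, mean 10341, adjusted p 0.834, the authors' deposited table). Cbx5 (HP1 alpha) had the highest mean of the 41 genes, 37793, and a log2FC of 0.69 (SE 0.71) in the authors' deposited table; its implied levels were 28917 and 46669. Summed per length, the HP1 genes had 7544 normalized counts per kb in nESC and 12001 in EpiLSC, with none of the 3 called.

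**Figure D3:**
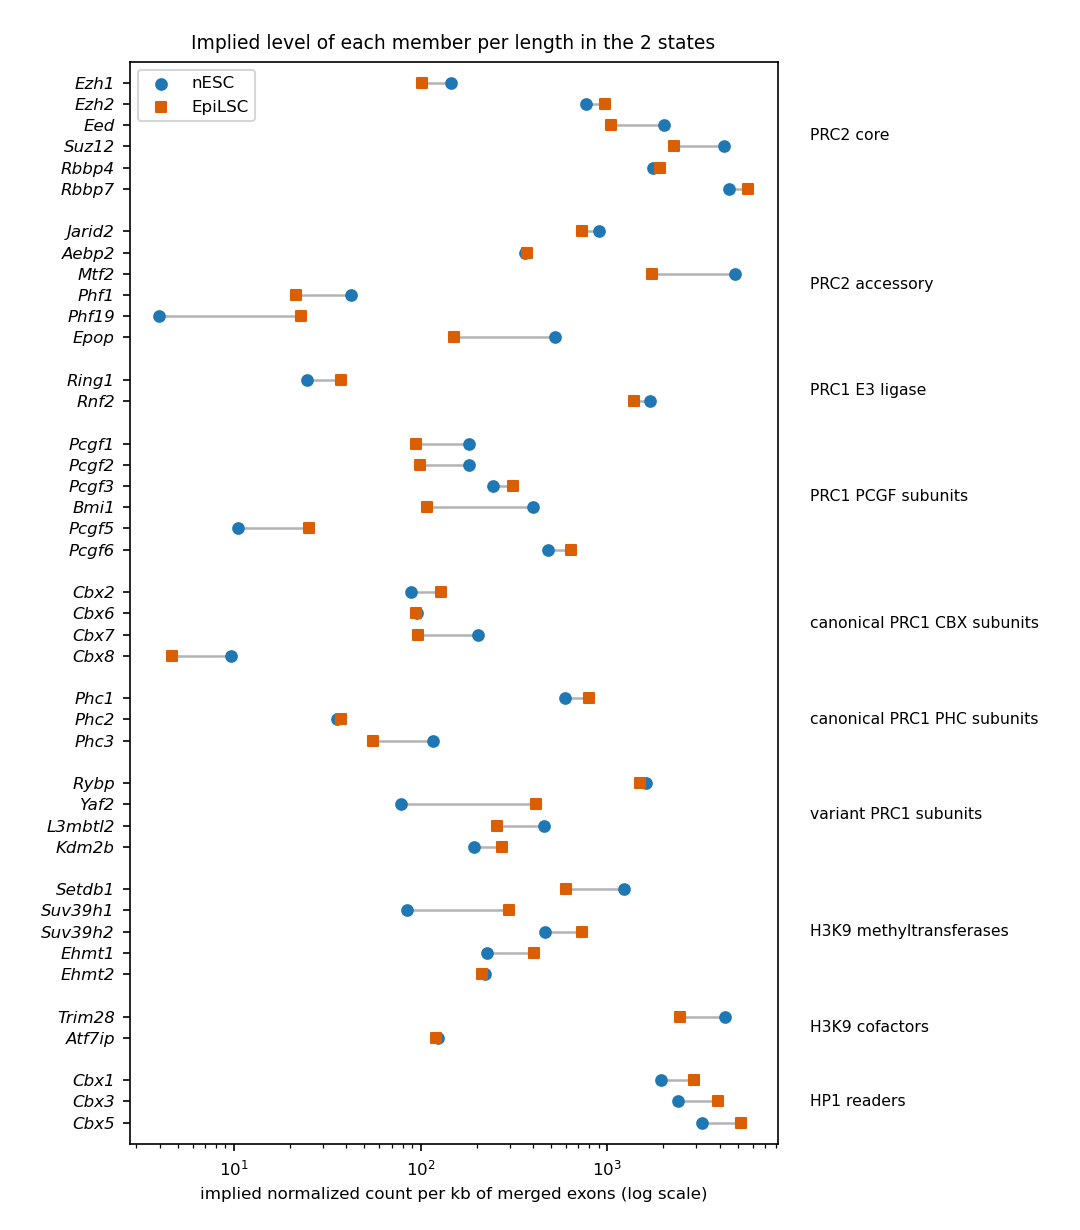
Implied normalized count per kb of merged exons (log scale) of each gene in nESC (blue circles) and EpiLSC (orange squares), by role. Rbbp4, Rbbp7, Eed, Suz12, Mtf2, Rnf2, Rybp, Trim28 and the HP1 genes lie above 1000 in both states. Phf19 goes from 3.97 to 23.0 and Yaf2 from 78.9 to 417.

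Paralogs of a family can take each other's place in a complex, and their shares of the family's summed level per length are described here without a test. By order alone, the leading gene was the same in both states in 10 of 11 families, the exception being the Polycomb CBX genes. There Cbx7 made up 51.2% in nESC and 29.9% in EpiLSC, and Cbx2 22.4% and 39.6%, with neither called. Shifting a gene's own log2FC by its SE moved the EpiLSC share of Cbx7 by about 7.8 points and that of Cbx2 by about 5.1. Their order in EpiLSC is thus not settled. Without division by length Cbx6 led in EpiLSC with 45.6%, before Cbx7 (28.7%) and Cbx2 (24.9%). In the RYBP family Yaf2 supplied 4.67% and 21.8%, and 1.90% and 9.91% without division by length. Phf19 supplied 0.0815% and 1.29% of the Polycomb-like family, and Mtf2 99% and 97.5%. Yaf2 and Phf19 were thus minor paralogs of their families in both states.

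In the PCGF family Pcgf6 led with 32.0% in nESC and 49.9% in EpiLSC, and Bmi1 had 26.6% and 8.53%. Ezh2 supplied 84.2% and 90.6% of the EZH pair, and Phc1 79.6% and 89.5% of the PHC genes. These leading genes had larger shares in EpiLSC. Suv39h2 supplied 84.6% and 71.2% of the SUV39H pair, Ehmt1 50.8% and 65.5% of its pair with Ehmt2, and Rbbp7 71.8% and 74.9% of its pair with Rbbp4. Shifting the log2FC of Ehmt1 by its SE moved its nESC share by about 7.4 points, so its lead there is not settled. Without division by length Rbbp7 supplied 45.8% and 49.8%, so Rbbp4 was then the larger. Cbx5 led the HP1 genes with 42.6% and 43.2%, but with the length of the longest transcript it supplied 28.1% and 28.6% and Cbx3 led with 42.1% and 43.2%. None of the genes of this paragraph was called.

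**Figure D4:**
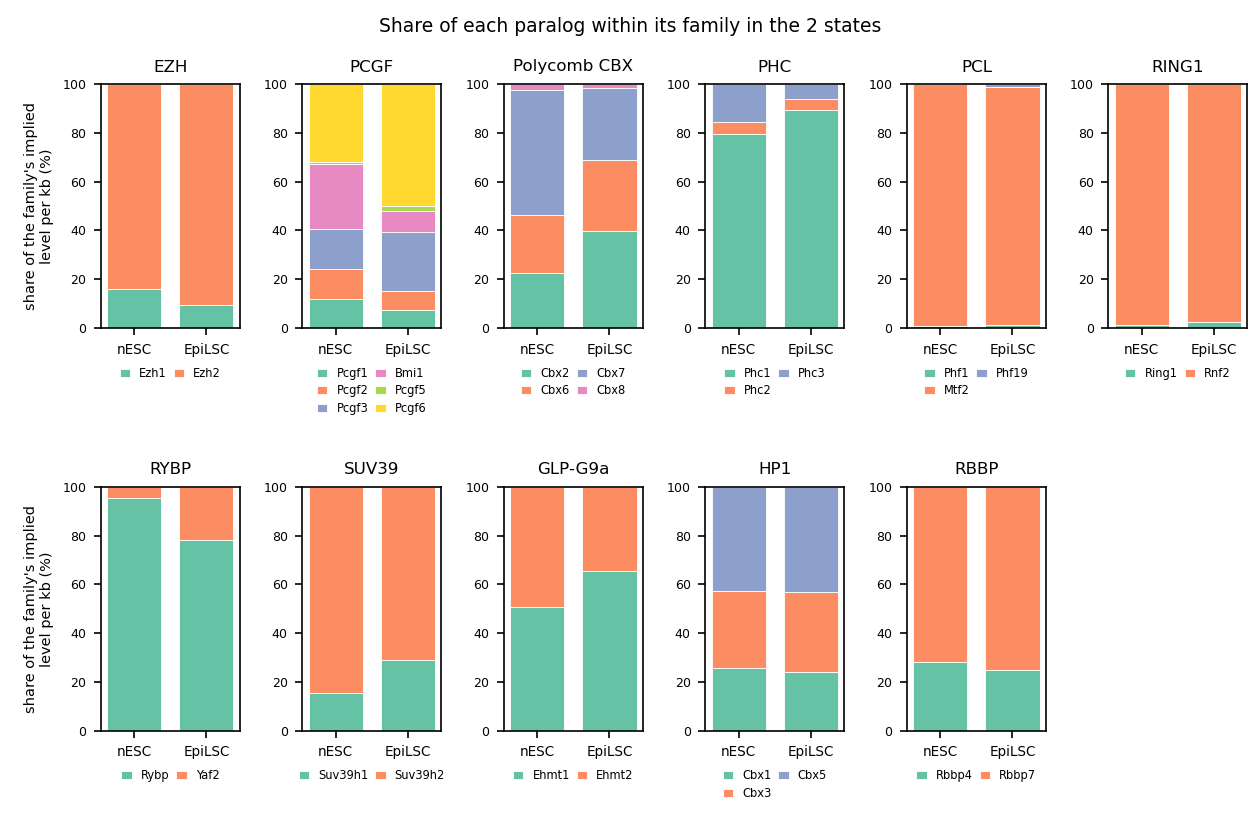
Share (percent) of each paralog in the summed implied level per kb of its family, in nESC (left bar) and EpiLSC (right bar). The share of Yaf2 in the RYBP family goes from 4.67% to 21.8%. In the Polycomb CBX family Cbx7 has the largest share in nESC (51.2%) and Cbx2 in EpiLSC (39.6%). The order in EpiLSC is not settled and differs without division by length.

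Related genes outside the 41 were taken from lists made by role, though earlier results of these data were known when the lists were made. Of 36 other Polycomb genes, 0 rose and 1 fell by DESeq2, 2.78% against 13.9% of all tested genes, with a median log2FC of -0.01. At an unadjusted p under 0.05 the counts were 0 and 2. The gene that fell was Sfmbt2, of the Polycomb-related MBT family, from an implied 1958 to 459 normalized counts (log2FC -2.09, SE 0.64, interval -3.35 to -0.83, mean 1209, adjusted p 0.0116, the authors' deposited table). The PRC2 inhibitor gene Ezhip was low, at 2.23 and 8.05, and was not called.

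Of 36 tested genes of the list of other H3K9 silencing genes, 1 rose and 1 fell, 5.56% against 13.9% of all tested genes, with a median log2FC of -0.32. Pphln1, which encodes a subunit of the HUSH complex that works with SETDB1, rose from an implied 939.5 to 7479.9 normalized counts (log2FC 2.99, SE 0.63, interval 1.77 to 4.22, mean 4209.7, adjusted p 4.25e-05, the authors' deposited table). The other HUSH genes Mphosph8 and Fam208a (TASOR) were not called, with a log2FC of 0.60 (SE 0.64) and -1.41 (SE 0.79) by the authors' deposited table. The chromodomain gene Cdyl2 fell from 1851 to 139 (log2FC -3.74, SE 0.64, interval -4.98 to -2.49, mean 995, adjusted p 2.06e-07, the authors' deposited table). Its paralog Cdyl had a log2FC of 0.12 (SE 0.61) by the authors' deposited table.

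Genes listed as under these complexes in stem cells were looked at as 2 lists, whose shares of called genes were not tested against those of the machinery. Not all of them were silent in nESC, where implied levels were 2884 normalized counts for Rpl10l, 719 for Sohlh2 and 439 for the mesoderm gene T. A change in a listed gene is thus not by itself a gain or loss of silencing. Of 35 developmental genes under Polycomb, 31 had a row and 17 enough reads to be tested. Of these 3 rose and 2 fell, 29.4% of those tested against 13.9% of all tested genes; a silent gene enters the test only through a state in which it has reads, so the share is not one of the whole list. Neurod1, of neurons and endocrine cells, had implied levels of 7.79 and 134 and a log2FC of 4.10 (SE 0.93) in the authors' deposited table. Foxa2, of endoderm, had 1.48 and 143, a log2FC of 6.60 (SE 1.59) by the authors' deposited table. Hnf4a, of visceral endoderm and liver, had 44.8 and 0.192, and Cdx2, of trophectoderm, 84.5 and 1.8, with a log2FC of -7.87 (SE 1.82) and -5.55 (SE 1.42) by the authors' deposited table. The lower state of Foxa2, Hnf4a and Cdx2 lay under 3 normalized counts, so the sizes of these changes rest on few reads. The untested genes Hand1, Neurog1 and Nkx2-5 were under 3 in both states.

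Germline genes under variant PRC1 or H3K9 methylation went both ways: of 23 tested, 6 rose and 5 fell, 47.8% of those tested against 13.9% of all tested genes, with a median log2FC of 0.17. Of the 26 genes listed 3 had too few reads to be tested, so this share too is not one of the whole list. Tdrkh and Tdrd1, of the piRNA pathway, rose from an implied 15.2 to 429 and from 8.57 to 306 normalized counts. Their log2FC was 4.82 (SE 0.76) and 5.16 (SE 0.86) by the authors' deposited table. Rpl10l, a ribosomal protein gene of the testis, and Sohlh2, a transcription factor gene of germ cells, fell from 2884 to 126 and from 719 to 25.8. Their log2FC was -4.51 (SE 0.63) and -4.80 (SE 0.79) by the authors' deposited table. Whether these changes go with the genes of the machinery was not tested.

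**Figure D5:**
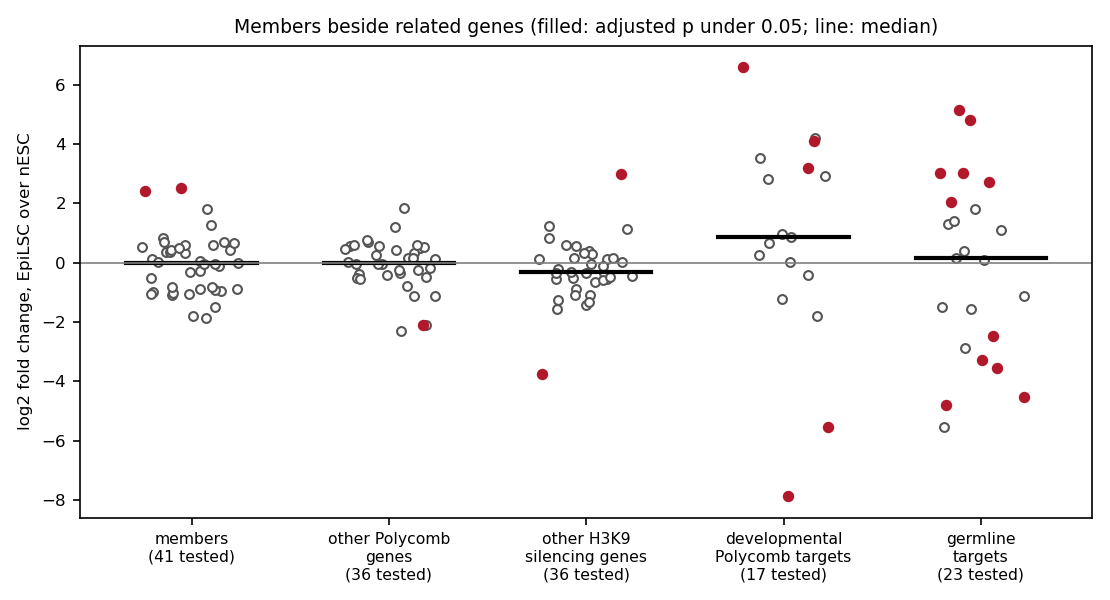
Log2FC (EpiLSC over nESC) of the tested genes of 5 lists; filled points had an adjusted p under 0.05, and the black line is the list's median. The 41 silencing genes lie between -1.87 and 2.53, and the developmental genes between -7.87 and 6.60.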

How the data were processed

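The data are RNA sequencing of 4 samples, 2 per state. The labels' protocols describe strand-specific libraries made after removal of ribosomal RNA. TopHat2, HTSeq, DESeq2 1.8.2 and mm9 are named by the submitters' processing notes. For the annotation and the strand setting: not given in the sources used here. A deposited table holds 1 mean normalized count signal per gene, which the authors made from counts and size factors. It also holds the authors' log2 fold change and SE, their Wald score, and the p-value with its Benjamini-Hochberg adjustment, per the file headers. It gives no adjusted p for 3935 genes. No column holds a single sample, so the deposited test was used as it stands.

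Implied levels were 2m/(1 + r) for nESC, with m the mean and r the fold change, and 2m minus that for EpiLSC, giving all libraries equal weight. Names and merged exon lengths came from GENCODE M21 (GRCm38), matched on unversioned identifiers for 20167 rows; lengths and promoters are thus not of the authors' build. Near-identical copies (95% identity over at least 200 bases) were sought among M21 transcripts, and found for 6 of the 41 genes (Bmi1, Kdm2b, Pcgf1, Rbbp7, Rybp, Setdb1), whose counts are uncertain to that extent; 16 share exon bases with a gene on the other strand. Intervals use the normal quantile. The scripts (Python 3.11.15, scipy 1.17.1) were tested on simulated data.

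The 41 genes and all lists were chosen with earlier results of these data known. One gene of the related lists is not reported here and enters no list count or family share. Full values are given for called genes and for the highest and lowest log2FC of each role group, and for other lists up to 2 called genes per direction with the smallest p. The fibroblast genes, Ezhip, Mphosph8, Fam208a, Cdyl, T, Hand1, Neurog1 and Nkx2-5 were named after their values were seen. Alternatives were the threshold, the filter on low means, a test against a 2-fold change, centring on abundant genes and the length behind the shares.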

Additional observations from a re-analysis of the deposited data

How the results depend on the processing

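Of the 41 silencing genes 2 rose; this became 1 at an adjusted p under 0.01, 1 with no filter on low means, 1 when genes averaging under 100 were left out (Phf19 among them), and 0 in the test against a 2-fold change. No alternative called a gene lower (0 of 41). In every alternative that tested them, 38 genes stayed on their side of the threshold, the others being Yaf2, Phf19 and Suv39h1. There were 6 alternatives, and Cbx8, with a mean of 26.2, was tested in 5 of them. Of the other Polycomb genes 1 fell; this became 0 at 0.01, 2 at 0.10 and 0 against a 2-fold change. Leaving out genes averaging under 100 left 3 developmental genes to test, of which 1 rose and 0 fell. Of the germline genes 6 rose, and this became 2 in the test against a 2-fold change. That test called 3.84% of all tested genes higher and 3.07% lower. Beyond the stricter or looser rules and fewer genes tested, the cause was not tested. Of 31 paralog shares, the change between states moved in 1 with the longest transcript and in 7 without division by length, where 1 changed direction. The genes could not be tested without each sample in turn. No paired analysis was possible because the table has no values per sample. Among the 39 uncalled genes, 25 have intervals that reach past a 4-fold change.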
